A study of Mus musculus with 6 samples.

Results

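The genes described here encode the proteins of the mitochondrial ribosome, whose symbols begin with Mrpl (large subunit) or Mrps (small subunit) followed by a digit. All protein-coding rows with such a symbol were taken, 78 of 54532 rows, of which 49 are *Mrpl* and 29 are *Mrps* genes. They were measured by RNA-seq in LSK cells, the Lin- Sca1+ c-Kit+ fraction of mouse bone marrow (BM) that holds hematopoietic stem and multipotent progenitor cells. The study compared *Myh9*-deficient LSKs with control LSKs to see which transcripts change once *Myh9*, the gene of the non-muscle myosin IIA heavy chain, is deleted.

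Each group had 3 libraries. The *Myh9*-deficient group (cKO) came from Myh9fl/fl;Mx1-cre mice and the control group (CTRL) from littermates labelled Myh9fl/fl;no cre, all on C57BL/6 and genotyped at 4 to 5 weeks of age. Mice of both genotypes received poly I:C at 5 mg/kg (2 doses by the labels), so both groups were exposed to this inducer of interferon. Mx1-cre is switched on by interferon and is not limited to blood cells. Cells were sorted 4 days after the first injection, 100000 per library. How many mice went into a library is not stated in the sources used here, so p-values measure the spread between these libraries.

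The mitochondrial ribosome is built from 2 rRNAs encoded in the mitochondrial DNA and from proteins that are all encoded in the nucleus, made in the cytosol and imported. It translates only the mRNAs of the mitochondrial genome, which encode core subunits of the respiratory chain complexes and of ATP synthase. Many of its proteins descend from bacterial ribosomal proteins, and others are found only in mitochondria. Hematopoietic stem cells are known for relying little on oxidative phosphorylation while quiescent and for raising it as they become committed.

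*Myh9* itself was at 22.98, 22.6 and 22.00 FPKM (fragments relative to the length of the gene and the size of the library) in the control libraries and at 18.4, 19.96 and 17.7 FPKM in the *Myh9*-deficient libraries. The groups did not overlap, and the mean fell by 17.1% (log2 fold change -0.26, SE 0.049, adjusted p = 0.00642). These values count fragments over the entire gene and not over the floxed exon alone. Each library held 17571544 to 19894562 reads on genes, and replicates correlated at 0.991 to 0.993 within a group against 0.974 to 0.977 between groups. Of the markers that define the sort, *Kit* was at 23.99, 24.3 and 23.4 FPKM in control and 21.2, 21.5 and 21.8 FPKM in the cKO libraries and *Ly6a*, which encodes Sca1, at 96.7, 93.2 and 96.2 FPKM in control and 92.3, 85.4 and 90.8 FPKM in cKO libraries. Of 7 LSK markers tested, *Procr* (0.67) and *Flt3* (0.58 on the log2 scale) were higher and *Kit* (-0.14) was lower, and their summed FPKM was between 334 and 341 in control and between 336 and 365 in cKO libraries. Summed FPKM of 10 neutrophil and monocyte markers went from between 6998 and 7044 in control to between 3606 and 3657, with 7 of 8 tested lower and 0 higher. Summed FPKM of 11 erythroid markers went from between 599 and 605 to between 1038 and 1076, with 9 of 9 tested higher, and that of 7 megakaryocyte markers from between 59.1 and 62.8 to between 129 and 134, with 4 of 4 tested higher. Summed FPKM of 8 B and plasma cell markers went from between 68.3 and 73.0 to between 104 and 109, with 3 of 5 tested higher and 1 lower. That of 9 T and NK cell markers went from between 351 and 361 to between 281 and 287, and nearly all of it was *Nkg7*, the 1 gene of this list that was tested, which was lower at 349.8, 359 and 351 FPKM in control and 282, 281 and 276 FPKM in cKO libraries. The B cell markers *Ms4a1*, *Ebf1* and *Pax5* were at 0.0372 FPKM or less in every library and the T cell marker *Cd3e* was listed at 0 in control and at 0.282 FPKM or less in *Myh9*-deficient LSKs. These shifts moved with every result given here, and their part in the results was not tested. In bulk libraries, a change in the number of cells of a type and a change in RNA per cell cannot be told apart.

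Transcripts of the mitochondrial ribosome were higher in *Myh9*-deficient LSKs, in both subunits and by a small amount. Of 48 *Mrpl* genes tested, 34 rose and 0 fell, and of 29 *Mrps* genes tested, 21 rose and 0 fell, at an adjusted p under 0.05 in limma. Among all 11552 genes tested, 19.9% were called higher and 20.6% lower, 40.5% in either direction. At an unadjusted p under 0.05 the number of genes lower was 0 in each subunit, and voom on the recovered reads also called 0 lower. The median log2 fold change was 0.22 for *Mrpl* genes (range -0.13 to 0.63) and 0.21 for *Mrps* genes (range 0.026 to 0.40), beside -0.0096 for all genes tested.

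**Figure D1:**
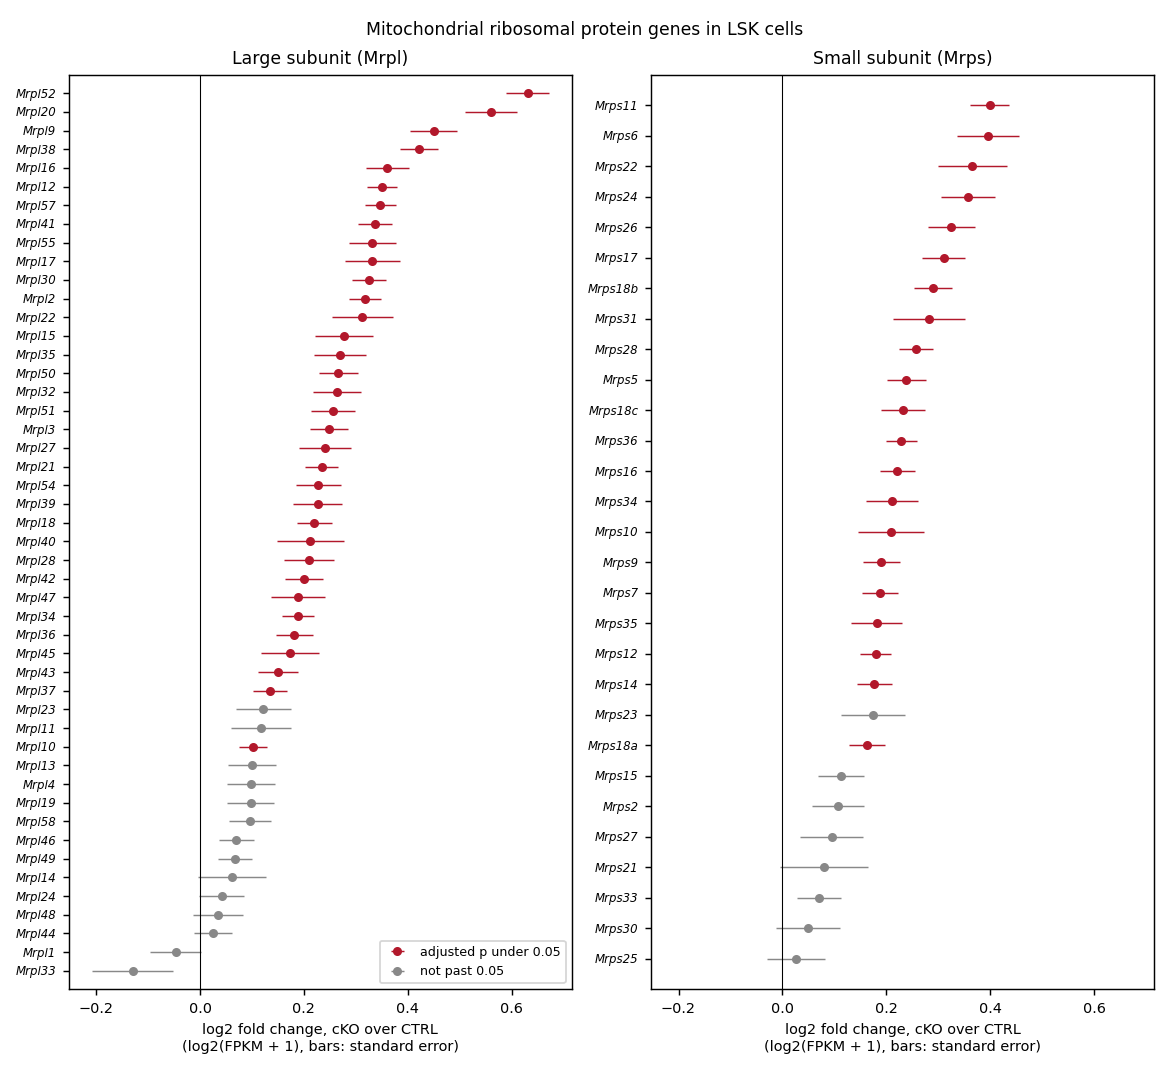
Log2 fold change of log2(FPKM + 1), *Myh9*-deficient (cKO) over control (CTRL) LSKs, for the 48 *Mrpl* and 29 *Mrps* genes tested, in order of size. Bars are standard errors from limma, and red marks an adjusted p under 0.05 (34 and 21 genes). *Mrpl1* and *Mrpl33* lie to the left of 0.

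The rise was spread over the genes rather than carried by a few. Of the 77 members tested, mean FPKM was greater by more than 25% in 17 and by 10% to 25% in 38. It differed by less than 10% in 22, and no member changed by over 2-fold. These classes go by the mean alone and not by the calls: *Mrps23* (13.0% greater) did not pass, and *Mrpl10* (7.54% greater) did. At the thresholds of the study, more than 2-fold with p under 0.05 (taken here as unadjusted, in limma), 0 members were called. Of all genes tested, 1.43% were called higher and 0.701% lower in this way. The paper does not say whether its p was adjusted. All *Myh9*-deficient libraries lay above all control libraries for 37 *Mrpl* and 22 *Mrps* genes, and the reverse order occurred for 0 members; over all genes tested, 25.5% had the first order and 28.5% the second. Each *Myh9*-deficient library showed it on its own: the median *Mrpl* gene lay 0.22, 0.19 and 0.21 above the control mean on the log2(FPKM + 1) scale in cKO replicates 1, 2 and 3, and the median *Mrps* gene 0.21, 0.21 and 0.20 above it. In the control libraries these medians ran from -0.013 to 0.030.

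Summed over the subunit, *Mrpl* genes reached 2003, 2016 and 2075 FPKM in control and 2446, 2393 and 2400 FPKM in the cKO libraries, an increase of 18.8% in the mean. The sum of the *Mrps* genes was 848, 855 and 883 FPKM in control and 1009, 989 and 993 FPKM in the cKO libraries, an increase of 15.6%. Neither sum overlapped between the groups. As a share of all reads on genes, the 78 members took 0.557%, 0.559% and 0.567% in control and 0.671%, 0.661% and 0.666% in cKO libraries.

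The 5 largest rises of the large subunit were those of *Mrpl52*, *Mrpl20*, *Mrpl9*, *Mrpl38* and *Mrpl16*. *Mrpl52* (chr14:54426909-54429756, mm10), which encodes a protein found only in mitochondrial ribosomes, was at 71.7, 71.9 and 77.8 FPKM in control and 118, 111 and 115 FPKM in cKO cells. Its mean went from 73.8 ± 3.47 to 115 ± 3.63 FPKM (SD, n = 3), a log2 fold change of 0.63 (SE 0.042, adjusted p = 8.69e-05). *Mrpl20* (chr4:155802878-155809975), whose bacterial relative binds the large rRNA early in assembly, was at 58.3, 56.9 and 56.6 FPKM in CTRL and 91.3, 79.5 and 84.4 FPKM in cKO, a log2 fold change of 0.56 (SE 0.050, adjusted p = 0.000311). For both genes the lowest *Myh9*-deficient library stood more than 20 FPKM above the highest control library. *Mrpl9* (chr3:94443318-94451130) was at 21.5, 23.01 and 24.1 FPKM in control and 30.95, 32.1 and 31.7 FPKM in cKO cells (log2 fold change 0.45, adjusted p = 0.000528). *Mrpl38* (chr11:116131817-116138868), a component of the central protuberance, was at 30.96, 31.4 and 33.6 FPKM in CTRL and 43.1, 43.6 and 42.8 FPKM in cKO (log2 fold change 0.42, adjusted p = 0.000274). *Mrpl16* (chr19:11770415-11774944), related to a bacterial protein beside the peptidyl transferase centre, was at 55.6, 55.9 and 59.4 FPKM in CTRL and 76.7, 70.9 and 72.6 FPKM in cKO (log2 fold change 0.36, adjusted p = 0.000851). The groups did not overlap for any of these genes.

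**Figure D2:**
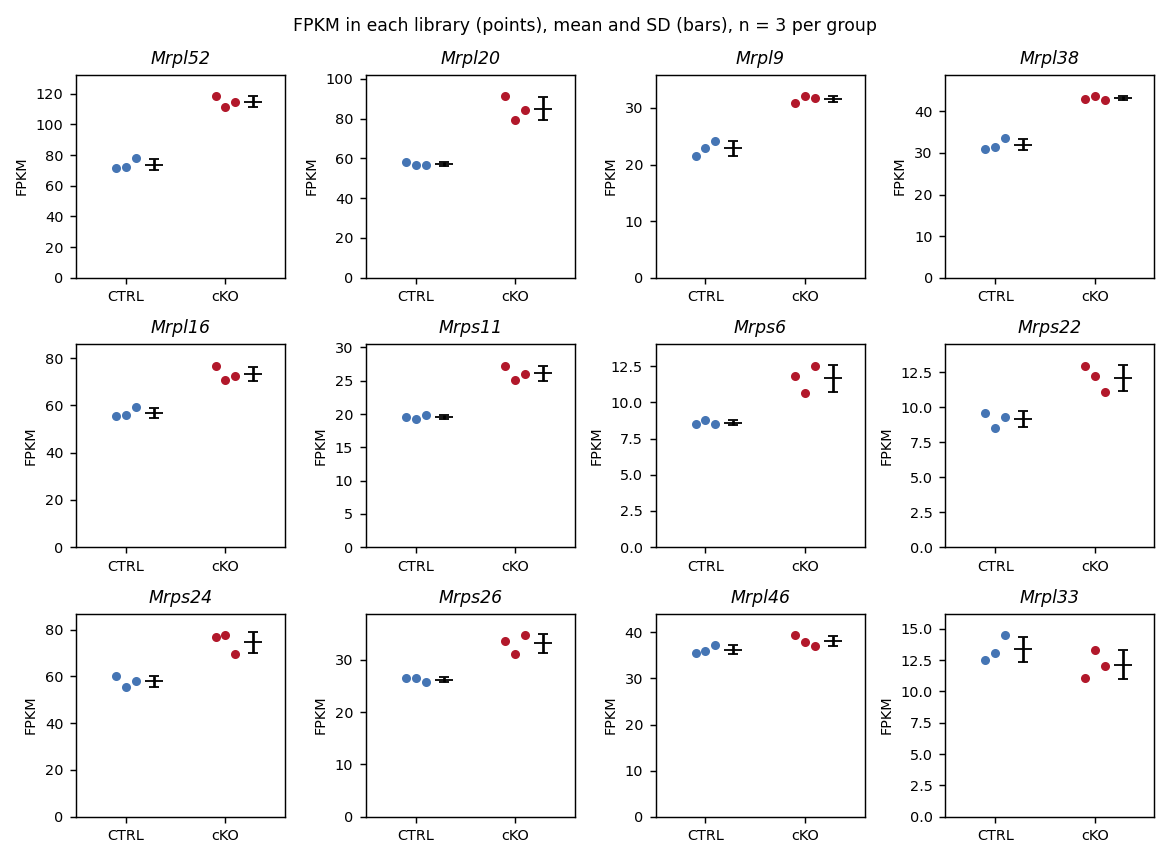
FPKM in each library (points) with the mean and SD (bars, n = 3) for the 5 largest rises of each subunit, and for *Mrpl46* and *Mrpl33*, in control (blue) and *Myh9*-deficient (red) LSKs. The groups are apart for the 10 genes with the largest rises and overlap for *Mrpl46* and *Mrpl33*.

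The genes of the stalk, the flexible arm of the large subunit that recruits translation factors, had log2 fold changes from 0.10 to 0.35, and *Mrpl11* did not pass. *Mrpl12*, the repeated protein at the tip of the arm, was at 87.5, 91.3 and 90.4 FPKM in control and 117, 114 and 113 FPKM in cKO cells, with a log2 fold change of 0.35 (SE 0.028, adjusted p = 0.000203). *Mrpl10*, which anchors *Mrpl12* copies to the subunit, was at 36.9, 37.7 and 37.5 FPKM in CTRL and 40.7, 40.2 and 39.6 FPKM in cKO, a smaller log2 fold change of 0.10 (SE 0.026, adjusted p = 0.0213). *Mrpl11*, at the base of the stalk, was at 25.8, 23.2 and 25.3 FPKM in CTRL and 28.6, 25.3 and 27.00 FPKM in cKO, and its groups overlapped (log2 fold change 0.12, SE 0.057, adjusted p = 0.148). Differences between these 3 log2 fold changes were not tested.

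Around the peptidyl transferase centre, where the peptide bond is made, 4 of 5 genes rose (*Mrpl2*, *Mrpl3*, *Mrpl16* and *Mrpl27*), and the fifth, *Mrpl4*, had a log2 fold change of 0.10 (SE 0.046, adjusted p = 0.134). At the exit of the peptide tunnel, 6 of 9 genes rose, with a median log2 fold change of 0.19, and in the central protuberance 4 of 7 rose, with a median of 0.21. *Mrpl45*, which holds the ribosome to the inner membrane at the tunnel exit, went from 22.8 to 25.8 FPKM in the mean, close to the threshold (adjusted p = 0.0469). By origin, 21 of 30 large-subunit genes with a bacterial counterpart rose, with a median of 0.23, and 14 of 20 genes found only in mitochondria rose, with a median of 0.19. These shares lie above the 19.9% of all genes, and the counts of the 2 origins were not tested against each other.

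The most abundant large-subunit transcripts per unit of length were *Mrpl34*, *Mrpl54* and *Mrpl2*, and all 3 rose. *Mrpl34* was at 186, 187 and 196 FPKM in control and 219.99, 219 and 210.3 FPKM in cKO cells, a log2 fold change of 0.19 (SE 0.031, adjusted p = 0.0039). *Mrpl54* was at 100.02, 109 and 108 FPKM in CTRL and 128, 124 and 119 FPKM in cKO (log2 fold change 0.23, adjusted p = 0.00674). *Mrpl2*, which lies at the heart of the peptidyl transferase centre, was at 100.7, 97.6 and 105 FPKM in CTRL and 126, 126 and 126 FPKM in cKO (log2 fold change 0.32, adjusted p = 0.000412). In *Mrpl2* the 3 *Myh9*-deficient libraries were within 1 FPKM of each other.

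Of the 48 *Mrpl* genes tested, 14 did not pass the threshold. The 3 nearest to 0 were *Mrpl44*, *Mrpl48* and *Mrpl24*. *Mrpl44*, which carries a ribonuclease III-like fold, was at 50.04, 46.5 and 47.2 FPKM in control and 49.95, 48.5 and 47.9 FPKM in cKO cells (log2 fold change 0.025, SE 0.036, adjusted p = 0.611). *Mrpl48* was at 9.05, 9.03 and 8.29 FPKM in CTRL and 8.74, 9.02 and 9.30 FPKM in cKO (log2 fold change 0.034, adjusted p = 0.601) and *Mrpl24* at 53.1, 50.98 and 52.2 FPKM in CTRL and 50.9, 56.7 and 53.5 FPKM in cKO (0.041, adjusted p = 0.484). All 3 overlapped between groups. *Mrpl1*, of the arm where spent tRNA leaves, was at 7.997, 7.73 and 8.03 FPKM in CTRL and 7.19, 7.66 and 8.07 FPKM in cKO (log2 fold change -0.047, SE 0.049, adjusted p = 0.486). *Mrpl33* was at 12.5, 13.1 and 14.5 FPKM in CTRL and 11.03, 13.3 and 11.99 FPKM in cKO (log2 fold change -0.13, SE 0.079, adjusted p = 0.232), and with *Mrpl1* it was 1 of only 2 members with a negative value. *Mrpl4*, *Mrpl19* and *Mrpl58*, the last of which encodes a peptide release factor that became a ribosomal protein, did not pass although their groups did not overlap. *Mrpl53* was listed at 0 in all 6 libraries and was not tested; 88.0% of its exon bases are shared with 2 other annotated genes.

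In the small subunit the 5 largest rises were those of *Mrps11*, *Mrps6*, *Mrps22*, *Mrps24* and *Mrps26*. *Mrps11* (chr7:78783119-78792989), of the platform that faces the large subunit, was at 19.6, 19.3 and 19.8 FPKM in control and 27.2, 25.05 and 26.03 FPKM in cKO cells. The mean went from 19.6 ± 0.292 to 26.1 ± 1.10 FPKM (SD, n = 3), a log2 fold change of 0.40 (SE 0.038, adjusted p = 0.000412). *Mrps6* (chr16:92058270-92112227), also of the platform, was at 8.50, 8.81 and 8.50 FPKM in CTRL and 11.8, 10.6 and 12.5 FPKM in cKO, a log2 fold change of 0.40 (SE 0.060, adjusted p = 0.00271). In both genes the control libraries lay close together and the *Myh9*-deficient libraries spread more widely above them. *Mrps22* (chr9:98588730-98601660), found only in mitochondrial ribosomes, was at 9.60, 8.53 and 9.32 FPKM in CTRL and 12.96, 12.2 and 11.1 FPKM in cKO (log2 fold change 0.37, adjusted p = 0.00589). *Mrps24* (chr11:5703983-5715680), near the mRNA entry, was at 60.3, 55.6 and 58.00 FPKM in CTRL and 76.9, 77.5 and 69.4 FPKM in cKO (log2 fold change 0.36, adjusted p = 0.00228). *Mrps26* (chr2:130563742-130568695) was at 26.4, 26.5 and 25.7 FPKM in CTRL and 33.6, 31.1 and 34.6 FPKM in cKO (log2 fold change 0.33, adjusted p = 0.00178). None of these genes overlapped between groups.

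In the small subunit head, 7 of 8 genes rose, with a median log2 fold change of 0.19. Of the small-subunit genes with a bacterial counterpart, 13 of 16 rose, with a median of 0.21, and of those found only in mitochondria 6 of 10 rose, with a median of 0.20. The most abundant per unit of length were *Mrps28*, *Mrps21* and *Mrps12*. *Mrps28* was at 90.8, 86.7 and 91.6 FPKM in control and 110.1, 105 and 107 FPKM in cKO cells (log2 fold change 0.26, SE 0.032, adjusted p = 0.00126). *Mrps12*, whose bacterial relative sits in the decoding centre, was at 65.9, 69.2 and 69.5 FPKM in CTRL and 77.9, 76.6 and 77.5 FPKM in cKO (log2 fold change 0.18, adjusted p = 0.00382). *Mrps21* was at 75.4, 85.9 and 96.7 FPKM in CTRL and 93.1, 87.6 and 90.9 FPKM in cKO. Its control libraries spanned the values of all 3 *Myh9*-deficient libraries, and its standard error was the largest of the members (log2 fold change 0.080, SE 0.084, adjusted p = 0.488).

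Nearest to 0 in the small-subunit list were *Mrps25*, *Mrps30* and *Mrps33*. *Mrps25* was at 8.53, 8.59 and 9.16 FPKM in CTRL and 9.15, 8.27 and 9.41 FPKM in cKO (log2 fold change 0.026, SE 0.056, adjusted p = 0.744), and 69.8% of its exon bases are shared with *Nr2c2*. *Mrps33* was at 36.6, 36.4 and 39.3 FPKM in CTRL and 37.95, 39.3 and 40.7 FPKM in cKO (log2 fold change 0.070, adjusted p = 0.231). *Mrps30*, which despite its symbol sits in the large subunit, was at 5.52, 6.44 and 5.67 FPKM in CTRL and 5.87, 6.17 and 6.26 FPKM in cKO (log2 fold change 0.048, adjusted p = 0.568). Each of these overlapped between groups. *Mrps15* had no overlap but an adjusted p of 0.0865.

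The 3 *Mrps18* paralogs, which occupy different places in the ribosome, all rose. All are related to 1 bacterial protein, and in the counts by origin *Mrps18c* stood with the genes that have a bacterial counterpart and *Mrps18a* and *Mrps18b* with those found only in mitochondria. *Mrps18a*, placed in the large subunit, was at 16.4, 15.7 and 15.9 FPKM in CTRL and 18.4, 17.6 and 18.1 FPKM in cKO, a log2 fold change of 0.16 (SE 0.034, adjusted p = 0.00971). *Mrps18b* was at 16.6, 17.1 and 17.8 FPKM in CTRL and 21.5, 21.2 and 20.9 FPKM in cKO (0.29, adjusted p = 0.00124) and *Mrps18c* at 31.2, 29.1 and 30.7 FPKM in CTRL and 34.3, 37.2 and 35.8 FPKM in cKO (0.23, adjusted p = 0.00578). *Mrps36*, now known as a part of the 2-oxoglutarate dehydrogenase complex and not of the ribosome, was at 32.2, 32.4 and 33.1 FPKM in CTRL and 38.6, 39.00 and 37.4 FPKM in cKO, a log2 fold change of 0.23 (SE 0.029, adjusted p = 0.00143). With the proteins sorted by place in the ribosome instead of by symbol, *Mrps36* left out and 5 proteins under other names added, 36 of 51 genes of the large and 22 of 30 of the small subunit rose.

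*Mrps11* and *Mrpl46* lie head to head on chromosome 7 (chr7:78783119-78792989 and chr7:78775236-78783531), and their annotated genes share 413 bases, with 7.97% of the exon bases of *Mrps11* and 12.2% of those of *Mrpl46* in common. *Mrpl46* was at 35.6, 35.97 and 37.3 FPKM in control and 39.4, 37.9 and 37.1 FPKM in cKO cells, with overlap between groups (log2 fold change 0.070, SE 0.034, adjusted p = 0.149), while *Mrps11* had the largest log2 fold change of the small subunit. The difference between the 2 genes was not tested, and this pair was singled out after its values were seen. Their RefSeq promoter windows, 250 bases before to 50 bases after the start (GRCm38.p6), share 141 bases read on opposite strands. They are shown with *Mrpl52*, the largest rise of all members, *Mrpl9* and *Mrps26*, which are among the 5 largest rises of their subunits, and *Mrpl44*, the gene of the large subunit nearest to 0. Capitals mark matches, on either strand, to CCGGAAG (an ETS factor motif, the kind bound by GABP), GCGCNTGCG (NRF1) or AAGATGGCG (YY1), and overlapping NRF1 matches run together.
*Mrpl52* (chr14:54426659-54426958, plus strand): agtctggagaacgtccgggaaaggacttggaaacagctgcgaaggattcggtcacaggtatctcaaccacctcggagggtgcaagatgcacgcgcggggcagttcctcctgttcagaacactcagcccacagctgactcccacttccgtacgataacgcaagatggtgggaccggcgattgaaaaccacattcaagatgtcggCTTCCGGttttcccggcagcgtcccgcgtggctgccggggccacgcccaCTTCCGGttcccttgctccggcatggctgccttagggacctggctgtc
*Mrpl9* (chr3:94443086-94443385, plus strand): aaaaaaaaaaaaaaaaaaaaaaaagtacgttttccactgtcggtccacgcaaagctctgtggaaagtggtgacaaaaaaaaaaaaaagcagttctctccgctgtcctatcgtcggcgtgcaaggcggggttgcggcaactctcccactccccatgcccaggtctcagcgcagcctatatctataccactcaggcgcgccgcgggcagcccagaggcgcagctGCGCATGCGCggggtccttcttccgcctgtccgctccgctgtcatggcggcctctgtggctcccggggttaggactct
*Mrpl44* (chr1:79775768-79776067, plus strand): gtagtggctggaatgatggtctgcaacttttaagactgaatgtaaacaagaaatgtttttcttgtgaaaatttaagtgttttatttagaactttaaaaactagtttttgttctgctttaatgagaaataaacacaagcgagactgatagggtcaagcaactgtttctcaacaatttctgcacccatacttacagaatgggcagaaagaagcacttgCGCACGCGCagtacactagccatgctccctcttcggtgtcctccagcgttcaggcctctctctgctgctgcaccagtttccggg
*Mrps11* (chr7:78782881-78783180, plus strand): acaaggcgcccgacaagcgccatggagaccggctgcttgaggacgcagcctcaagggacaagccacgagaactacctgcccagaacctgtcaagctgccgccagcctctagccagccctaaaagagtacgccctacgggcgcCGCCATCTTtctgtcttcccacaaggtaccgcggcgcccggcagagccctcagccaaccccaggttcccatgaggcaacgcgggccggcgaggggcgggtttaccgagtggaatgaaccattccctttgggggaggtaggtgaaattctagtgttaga
*Mrpl46* (chr7:78783040-78783339, minus strand): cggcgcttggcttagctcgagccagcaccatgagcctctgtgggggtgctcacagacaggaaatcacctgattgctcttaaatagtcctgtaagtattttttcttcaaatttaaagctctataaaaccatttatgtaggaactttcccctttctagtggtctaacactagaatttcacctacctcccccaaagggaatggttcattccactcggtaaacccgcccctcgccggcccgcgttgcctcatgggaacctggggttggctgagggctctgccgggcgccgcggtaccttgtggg
*Mrps26* (chr2:130563507-130563806, plus strand): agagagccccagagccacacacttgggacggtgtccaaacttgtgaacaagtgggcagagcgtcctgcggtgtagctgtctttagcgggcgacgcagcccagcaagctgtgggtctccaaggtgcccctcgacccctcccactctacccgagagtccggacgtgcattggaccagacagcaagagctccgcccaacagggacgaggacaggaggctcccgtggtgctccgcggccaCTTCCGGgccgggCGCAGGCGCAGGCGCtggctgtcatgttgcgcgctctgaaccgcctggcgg

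Windows were found for 69 of the 78 members. The ETS motif was in the windows of 26 members (37.7%), NRF1 in 18 (26.1%), YY1 in 8 (11.6%) and the E-box CACGTG in 5 (7.25%). In 7860 other protein-coding genes tested, the shares were 22.6%, 16.7%, 4.11% and 12.5%, and in all 32851 windows of this length 8.86%, 6.31%, 1.40% and 7.15%. *Mrpl52* held 2 ETS matches, *Mrpl9* 2 overlapping NRF1 matches on opposite strands of a single stretch, and *Mrpl44* 1 NRF1 match. *Mrps11* held a YY1 match and *Mrps26* ETS and NRF1 matches. *Mrpl46* and *Mrpl20*, the second largest rise, held no ETS, NRF1 or YY1 match, while *Mrpl20* held the E-box. The ETS motif was in 18 of 49 members that rose and in 7 of 19 that did not pass, and NRF1 in 15 of 49 and 3 of 19. These NRF1 counts depend on the letters searched: with a further C required at the end of the motif, 13 members (18.8%) and 12.8% of the other genes held it, 10 of the 49 that rose and 3 of the 19 that did not pass. No window was found for *Mrpl4*, *Mrpl13*, *Mrpl15*, *Mrpl19*, *Mrpl38*, *Mrpl54*, *Mrps28*, *Mrps34* and *Mrps35*. A match describes the letters of the window and is not evidence of binding in these cells.

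Of the 77 members tested, 19 (24.7%) had another protein-coding gene starting within 1000 bases upstream on the opposite strand, against 11.5% of 9866 other protein-coding genes. Of these neighbours, 17 were tested, and 4 rose, 3 fell and 10 did not pass, with a median log2 fold change of 0.026. Among all genes tested, 19.9% were called higher and 20.6% lower, so these counts lie near the shares of all genes. *Mrpl51* (0.26) had *Ncapd2*, a condensin gene, at -0.16, *Mrps18b* (0.29) had *Ppp1r10* at -0.25, and *Mrpl41* (0.34) had *Pnpla7* at -0.28, and all 3 of these neighbours fell. *Mrpl57* (0.35) had *Ska3* 49 bases away, which went from 10.4 to 10.4 FPKM. *Mrpl32* (0.26) and its neighbour *Psma2*, a proteasome gene, both rose (0.26 for *Psma2*). So did *Mrpl30* (0.33) with *Mitd1* (0.38) and *Mrps12* (0.18) with *Sars2*, a mitochondrial tRNA synthetase gene (0.17). *Fau* (0.090) also rose, beside *Mrpl49* (0.067), which did not pass.

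Members were set beside other genes of like length, because short genes were higher in *Myh9*-deficient LSKs on the whole. Among 4394 genes with lengths inside the middle range of the *Mrpl* genes (between the quartiles, 1259 to 4202 bases), 26.9% were called higher and 19.5% lower, and the median log2 fold change was 0.028. Where mean FPKM was held to the middle range of the *Mrpl* genes as well, 34.2% of 1367 genes were higher and 21.4% lower, at a median of 0.041. The *Mrpl* genes stood at 70.8% and 0%, with a median of 0.22. For lengths like those of *Mrps* genes (1560 to 4358 bases), 25.8% of 4288 genes were higher and 20.3% lower (median 0.019), and with level held too 30.0% of 1385 genes were higher and 21.2% lower (median 0.025), beside 72.4% and 0% of *Mrps* genes (median 0.21).

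By length class, the share of other protein-coding genes called higher was 33.7% under 1 kb, 35.6% from 1 to 2 kb, 25.5% from 2 to 4 kb and 11.6% over 4 kb, and their median log2 fold change was 0.12, 0.086, 0.018 and -0.066. The members stayed nearly level over the same classes, with 6 of 8, 17 of 23, 18 of 24 and 14 of 22 called higher and medians of 0.23, 0.21, 0.22 and 0.19. Across the 77 members, which share libraries and depth, Spearman's rho of the log2 fold change was -0.17 with gene length, 0.15 with mean FPKM and 0.015 with GC content. After removal of the trends with GC content and length in each library, 28 *Mrpl* and 20 *Mrps* genes rose and 0 fell, with medians of 0.17 and 0.18.

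**Figure D3:**
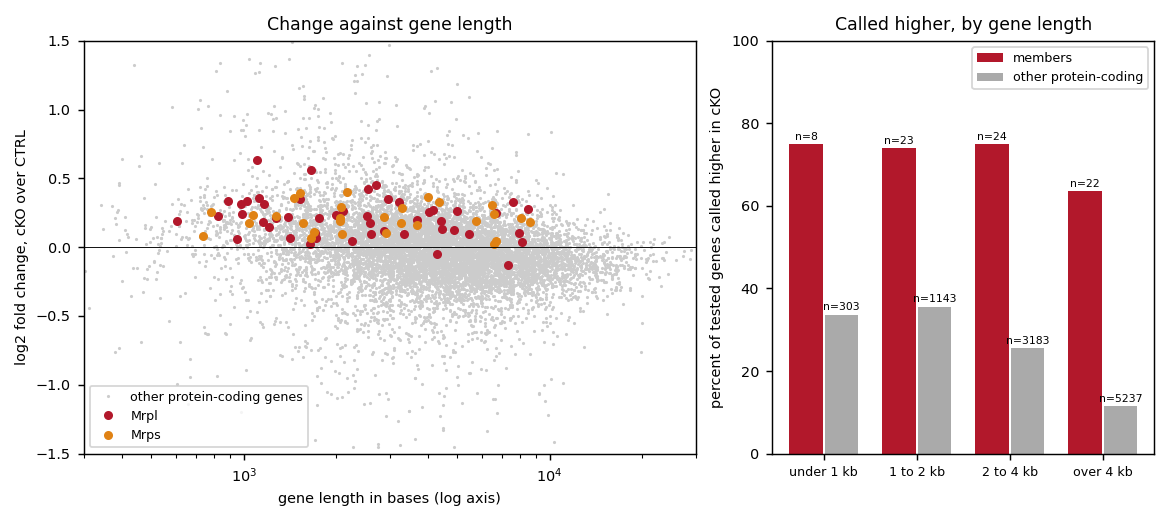
Left, log2 fold change against gene length in bases (log axis) for *Mrpl* genes (red), *Mrps* genes (orange) and 9836 other protein-coding genes (grey, with 30 more outside the axes). Right, percent of tested genes called higher by length class, where members stand at 63.6% to 75% and other protein-coding genes at 11.6% to 35.6%.

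Although the proteins enter the ribosome in fixed numbers of copies, transcript levels per length differed widely among the members. Mean FPKM over the 6 libraries ran from 5.99 for *Mrps30* to 203 for *Mrpl34*, a ratio of 33.9, with a middle range of 14.8 to 53.5. The deposited lengths equal the union of all annotated exons for 73 members and were 0.868 to 15.3 times the median coding transcript of the gene, with the highest ratio in *Mrpl33*. FPKM fell with this length across members (Spearman's rho -0.86), but FPKM is itself divided by this length, so the relation is partly built in. With the median coding transcript as the length, the ratio of highest to lowest level was 26.1, from *Mrps25* to *Mrpl52*. The FPKM ratio of 1 gene between groups does not depend on the length used. In all, 33 members share exon bases with another gene, 18 of them over 10% and 3 over 50% (*Mrpl53*, *Mrps34* and *Mrps25*), and how such reads were counted is not known. Among the other genes described above, the shared part was over 10% in *Mrpl19* (36%), *Mrps18b* (30.5%), *Mrpl24* (26.3%), *Mrps18c* (23.2%), *Mrps6* (19.9%), *Mrps24* (15.4%), *Mrpl10* (14.1%), *Mrpl12* (13.1%) and *Mrpl46* (12.2%). The members tested had 238 to 3360 reads each per library and a median coefficient of variation of 3.49% among control and 3.36% among cKO libraries.

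Other genes of mitochondrial translation were described in 5 lists, to be read beside the 19.9% higher and 20.6% lower of all genes tested. Of 5 mitochondrial ribosomal proteins under other names, 4 rose, with a median log2 fold change of 0.22: *Gadd45gip1* went from 31.9 to 37.8 FPKM, *Ptcd3* from 8.31 to 9.85, *Aurkaip1* from 76.8 to 89.4 and *Dap3* from 16.6 to 17.95. Of 27 genes for ribosome assembly and rRNA modification, 8 rose and 1 fell (median 0.099). The largest rises were those of *Mrm3*, an rRNA methyltransferase, at 13.02, 13.2 and 13.9 FPKM in control and 16.4, 16.2 and 16.7 FPKM in cKO cells, and of *Rcc1l* (0.22). *Mrm1*, another rRNA methyltransferase, was the gene that fell, from 13.99, 13.7 and 14.01 to 11.95, 12.8 and 10.5 FPKM (log2 fold change -0.23, SE 0.066, adjusted p = 0.0319).

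Of 15 translation factors of mitochondria, 5 rose and 1 fell (median 0.13). *Mtfmt*, which formylates the initiator methionine tRNA, was at 7.26, 6.24 and 6.26 FPKM in CTRL and 9.07, 8.39 and 7.87 FPKM in cKO (log2 fold change 0.32, adjusted p = 0.0141), and *Tsfm*, an elongation factor, at 19.03, 19.1 and 20.6 FPKM in CTRL and 25.9, 24.00 and 23.6 FPKM in cKO (0.31, adjusted p = 0.00298). *Mtrf1*, a release factor, fell from 5.87 to 4.70 FPKM in the mean (adjusted p = 0.0424). Of 17 mitochondrial tRNA synthetase genes, 5 rose and 2 fell (median 0.074), with *Iars2* (0.30) and *Mars2* (0.19) the largest rises and *Wars2* (-0.27) and *Ears2* (-0.22) the falls. Of 11 genes for copying and transcribing the mitochondrial DNA, 2 rose and 0 fell at an adjusted p under 0.05 in limma (median 0.11): *Ssbp1* (0.34) and *Tfam* (0.21), which packages this DNA. The share higher in this list, 18.2%, lies near the 19.9% of all genes tested. Over these 5 lists, 24 of 75 genes rose and 4 fell, and the number that fell depended on the settings, as given further below. The share that rose was 32.0%, beside 71.4% of the members and 19.9% of all genes tested. Differences between these shares were not tested. The 75 genes had a median length of 4006 bases and a median level of 7.98 FPKM, beside 2255 bases and 33.0 FPKM for the members.

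Of 15 RNAs made from the mitochondrial genome, 2 rose and 2 fell, at a median of -0.061. That is 13.3% in each direction, beside 19.9% higher and 20.6% lower of all genes tested. *mt-Rnr1*, the rRNA of the small subunit, was at 182, 184 and 189.8 FPKM in control and 262, 241 and 272 FPKM in cKO cells, without overlap (log2 fold change 0.47, SE 0.047, adjusted p = 0.000473). *mt-Rnr2*, the rRNA of the large subunit, was at 145, 145 and 144 FPKM in CTRL and 149.5, 144 and 163 FPKM in cKO, with overlap (log2 fold change 0.067, SE 0.045, adjusted p = 0.276). Libraries were made with the Illumina Truseq RNA kit, and how rRNA was selected against is not given in the sources used here. Among mRNAs, *mt-Nd1* rose (0.14), while *mt-Nd5* (-0.22) and *mt-Nd6* (-0.23) fell, all 3 subunits of complex I.

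Of 8 regulators of mitochondrial biogenesis tested, 0 rose and 1 fell, beside 19.9% higher and 20.6% lower of all genes tested. *Gabpa*, an ETS factor, fell from 8.54, 8.68 and 8.35 to 7.90, 7.57 and 7.77 FPKM (log2 fold change -0.12, SE 0.038, adjusted p = 0.0395). *Nrf1* was at 5.03, 5.15 and 4.81 FPKM in CTRL and 4.93, 4.99 and 4.91 FPKM in cKO and *Yy1* at 26.9, 26.5 and 27.2 FPKM in CTRL and 25.5, 27.4 and 25.7 FPKM in cKO, with overlap between groups in both. *Myc*, which drives ribosome biogenesis, was at 111, 109 and 111 FPKM in CTRL and 109, 113 and 109 FPKM in cKO (log2 fold change 0.0039, SE 0.026, adjusted p = 0.92). *Ppargc1a*, a coactivator of biogenesis genes, did not reach the minimum of 1 FPKM in the mean.

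A pair of larger groups was set beside the members. Of 76 nuclear genes for subunits of the respiratory chain and ATP synthase, 54 rose and 2 fell (71.1% higher, median log2 fold change 0.18), a share near that of the members. Of 80 cytosolic ribosomal protein genes, 21 rose and 1 fell (26.3% higher, median 0.060), beside 19.9% higher of all genes tested. The differences between these groups and the members were not tested.

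**Figure D4:**
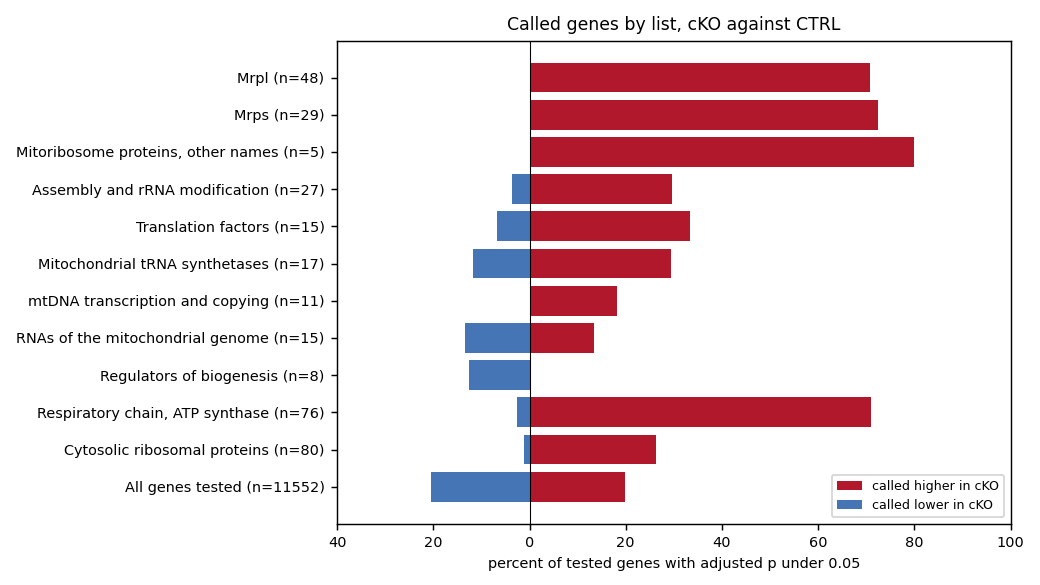
Percent of the tested genes of each list called higher (red, to the right) or lower (blue, to the left) in *Myh9*-deficient LSKs at an adjusted p under 0.05, with the number tested in brackets. *Mrpl* and *Mrps* genes stand at 70.8% and 72.4% higher and 0% lower, beside 19.9% and 20.6% of all genes.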

How the data were processed

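Sorted LSK cells from 3 control and 3 *Myh9*-deficient sets were sequenced, and the authors deposited 1 table of FPKM values with gene lengths for 54532 genes. The submitters' processing notes name HISAT2 2.0.5 and mm10. The counting program and its strand setting are not given in the sources used here, so reads of overlapping genes cannot be told apart. FPKM times gene length gave whole multiples of 1 step in 100% of values (tolerance 0.05), from which reads were recovered. The deposited FPKM already carry median-of-ratios scaling.

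A gene was tested if its mean reached 1 FPKM (11552 genes), as log2(FPKM + 1) with limma 3.58.1 (R 4.3.3; lmFit, eBayes with a trend), two-sided, with Benjamini-Hochberg adjustment over all genes tested; every adjusted p printed comes from this test. An exact permutation test of 3 against 3 cannot go below p = 0.1. The pipeline was tested on simulated data. Fold changes on the log2(FPKM + 1) scale understate changes of low genes.

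Members and gene lists were chosen with earlier results of these data known. 2 genes of the marker lists are not reported here. Every member could be named; values in each library were given for the 5 largest rises and falls, the 3 highest levels and the 3 values nearest 0 in each subunit, stalk genes, *Mrps18* paralogs, *Mrps30* and *Mrps36*. For the other lists up to 2 rises and 2 falls were named, some by the mean or log2 fold change alone. All 4 rises among proteins under other names, marker genes, regulators, rRNAs and head-to-head pairs were named outside this rule. GENCODE M21 had the same start and end for 73 of 78 members. Promoter windows came from RefSeq (GRCm38.p6). Python 3.11.15, pandas 2.3.3, numpy 2.4.6, mgcv 1.9.3 and matplotlib 3.10.9 were used.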

Additional observations from a re-analysis of the deposited data

How the results depend on the processing

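Over the other settings, 26 to 39 *Mrpl* and 17 to 23 *Mrps* genes were called higher and 0 were called lower, apart from the thresholds of the study, and 36 of the 55 members called remained called in all 18 settings applied gene by gene. The median log2 fold changes stayed between 0.17 and 0.24. At the study's thresholds, more than 2-fold with p under 0.05 (taken here as unadjusted, in limma), the calls fell to 0 *Mrpl* and 0 *Mrps* genes. They were 0 higher and 0 lower for genes of mitochondrial translation, and 165 higher and 81 lower for all genes tested. The paper reports larger counts of changed genes. It names neither the test nor an adjustment of its p, so its counts and those given here are not alike. Leaving out each library in turn gave 29 to 32 *Mrpl* and 18 to 20 *Mrps* genes called higher. The 4 other genes of mitochondrial translation that fell became 2 without a filter, 2 at a mean of at least 5 FPKM, 1 with GC and length trends removed and the replicate block, and 1 to 4 when 1 library was left out.

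Signs turned only in members that did not pass the threshold. With GC and length trends removed, with or without the replicate block, the log2 fold change was -0.020 for *Mrpl46*, -0.035 for *Mrpl49*, -0.016 for *Mrpl14*, -0.025 for *Mrpl24*, -0.067 for *Mrpl44*, -0.052 for *Mrps21* and -0.050 for *Mrps33*. With quantile normalization it was -0.013 for *Mrpl24* and -0.011 for *Mrpl44*. With 1 library left out, it ran from -0.0030 (without CTRL replicate 3) to 0.054 for *Mrpl48*, from -0.010 (without CTRL replicate 1) to 0.17 for *Mrps21* and from -0.0079 (without cKO replicate 3) to 0.075 for *Mrps25*. The cause was not tested.

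Whether replicate numbers mark paired samples is not known. Deviations of same-numbered libraries correlated at -0.0046, -0.011 and -0.026, and those of libraries with different numbers at -0.0050 to 0.016. Values near 0 do not exclude pairing, since paired samples need not share a deviation. With the replicate number as a block, 34 *Mrpl* and 21 *Mrps* genes were called higher. Scaling by the median of ratios changed nothing, because the deposited values already carry it. Standard errors of the members were 0.026 to 0.084, and the smallest log2 fold change called was 0.10, in *Mrpl10*.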
